A study of Rattus norvegicus with 5 samples.

Results

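The genes described here encode the machinery that releases neurotransmitter from presynaptic vesicles, in parietal cortex of rats injected with kaolin, set against saline-injected rats. A list of 35 genes was matched by gene name or current rat symbol, and 34 of them were found on 39 of the 41012 probes of the array. Napb, a SNAP protein of the disassembly step, was on no probe under its name or current symbol. All 34 genes had at least 1 probe that passed the filter on dim spots, and 38 of the 39 probes passed it; 1 of 3 Vamp2 probes was not above background in either channel on any array.

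Kaolin is a clay that obstructs the flow of cerebrospinal fluid and enlarges the ventricles. Kaolin pups received it on postnatal day 1 and control pups received saline on the same day, and cortex was taken on postnatal day 22, which was post-kaolin day 21. On each of 5 two-colour arrays a kaolin sample, labelled with Cy3, was hybridised with a saline sample, labelled with Cy5, and since the dyes were never exchanged, an effect of treatment and one of dye cannot be told apart. The labels do not say whether a sample was 1 animal or a pool, and p-values measure only the spread between these arrays.

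Release begins with vesicles that carry the small membrane proteins synaptophysin and synaptogyrin and are tethered in clusters by synapsins. At the active zone, Rim and Munc13 dock and prime them, beside the scaffolds bassoon and piccolo. Synaptobrevin on the vesicle zips together with syntaxin and SNAP-25 on the plasma membrane into the SNARE complex. Synaptotagmins sense calcium, complexins clamp and promote fusion, and Nsf with its SNAP adaptors takes the spent complex apart. In cortex most of these genes are expressed mainly by neurons.

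Promoter windows of RefSeq (build GRCr8, 250 bases before to 50 after the gene start) were at hand for 25 of the 35 genes, 24 of them measured here. They are shown for 4 members: Cplx2 had the lowest mean ratio, Syn2 and Stx1a were below 0 on every array, and Syn1 holds a cyclic AMP response element. Each runs 5′ to 3′ on the strand of its gene, with the motif matches in capitals: GC boxes (GGGCGG, or CCGCCC on the other strand) in all 4, and TGACGTCA in Syn1.
Cplx2, chr17:10236704-10237003, minus strand: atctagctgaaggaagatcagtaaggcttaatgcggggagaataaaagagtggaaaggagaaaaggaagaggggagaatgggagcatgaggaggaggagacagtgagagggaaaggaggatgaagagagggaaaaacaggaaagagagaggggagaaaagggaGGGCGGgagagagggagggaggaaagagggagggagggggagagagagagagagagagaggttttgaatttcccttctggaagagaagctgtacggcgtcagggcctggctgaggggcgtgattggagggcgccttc
Syn2, chr4:149858669-149858968, plus strand: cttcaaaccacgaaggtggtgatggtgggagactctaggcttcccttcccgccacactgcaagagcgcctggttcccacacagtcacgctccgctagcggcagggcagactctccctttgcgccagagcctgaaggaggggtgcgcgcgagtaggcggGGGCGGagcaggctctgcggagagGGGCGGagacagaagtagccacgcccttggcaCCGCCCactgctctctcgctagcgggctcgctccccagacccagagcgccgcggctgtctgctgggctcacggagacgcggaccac
Stx1a, chr12:27306422-27306721, minus strand: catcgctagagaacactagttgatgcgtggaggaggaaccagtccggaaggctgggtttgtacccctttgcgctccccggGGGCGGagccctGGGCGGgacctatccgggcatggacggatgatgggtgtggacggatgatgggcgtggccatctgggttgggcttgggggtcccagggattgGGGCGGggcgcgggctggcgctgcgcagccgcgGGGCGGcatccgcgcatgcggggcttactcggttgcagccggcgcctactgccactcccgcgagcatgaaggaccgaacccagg
Syn1, chrX:3725495-3725794, plus strand: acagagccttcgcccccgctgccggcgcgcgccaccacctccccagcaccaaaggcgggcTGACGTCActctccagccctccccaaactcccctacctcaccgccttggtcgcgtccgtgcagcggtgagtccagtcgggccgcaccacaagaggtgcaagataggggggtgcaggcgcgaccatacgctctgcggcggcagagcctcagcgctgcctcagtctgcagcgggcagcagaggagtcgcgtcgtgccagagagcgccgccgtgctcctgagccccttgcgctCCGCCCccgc

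The motifs were searched on both strands, and no 2 different motifs overlapped in these 4 windows. The GC box GGGCGG, a site bound by Sp1-family factors, was in 21 of the 25 windows (84.0%), against 41.8% of 21842 protein-coding windows and 33.1% of all 33469. The windows of the release genes also had more G and C, with a median of 64.3%, against 55.0% in protein-coding windows and 51.7% in all windows. TGACGTCA was in the windows of Syn1, Vamp1 and Napa, 3 of 25, against 2.1% of protein-coding windows. The TATA box TATAAA was in 0 of 25, against 13.0% of protein-coding windows. The EGR site GCGTGGGCG was in that of Vamp2 alone (0.755% of protein-coding windows) and the NRF1 site in that of Bsn alone (1.08%). The E-box CACGTG was in those of Nsf and Napa, 2 of 25, against 7.01% of protein-coding windows. A match is a run of letters and says nothing of binding in these samples.

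As a set, the release genes stood slightly below 0. A gene is represented by its brightest probe, and every ratio below is log2 of kaolin over saline after loess normalization, so that a negative value means a lower signal in kaolin cortex. The median over the 34 genes was -0.19, 0.10, -0.17, -0.03 and -0.17 on replicates 1 to 5, which gives -0.09 ± 0.13 (SD, n = 5), against a median of 0.00 over all 29114 tested probes on average. Thus 4 arrays had a median below 0, and replicate 2 had one above it. The mean ratio was below 0 in 24 of 34 genes (70.6%), against 50.8% of all tested probes. Single means ran from -0.37 (Cplx2) to 0.25 (Syt5), and 12 of the 34 lay within 0.1 of 0.

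No member passed the test. In limma, with Benjamini-Hochberg adjustment over all tested probes, 0 of 34 genes and 0 of 29114 probes (0%) had an adjusted p under 0.05; the smallest over the array was 0.243. At an unadjusted p under 0.05 there were 7 members lower in kaolin (20.6%, against 9.31% of all probes) and 1 higher (2.94%, against 8.82%). Below 0 on all 5 arrays were 4 members (11.8%, against 6.64% of all probes), namely Syn2, Syt3, Stx1a and Rab3a, and above 0 on all 5 was 1 member, Syt5 (2.94%, against 6.23%). The members at an unadjusted p under 0.05 in either direction numbered 13 without replicate 2 (38.2%, against 31.4% of all probes) and 1 without replicate 1 (2.94%, against 15% of all probes). They numbered 2 without replicate 3 (5.88%, against 6.99%), 2 without replicate 4 (5.88%, against 7.83%) and 4 without replicate 5 (11.8%, against 13.5%).

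The arrays were not alike. Below 0 were 24, 9, 24, 18 and 28 of the 34 members on replicates 1 to 5, while the share of all tested probes below 0 stayed between 49.5% and 51.3%. Replicate 2 therefore had 25 of 34 members above 0. Over all probes the ratios of replicates 1 and 2 correlated at -0.33, those of replicates 3 and 4 at 0.80, and the other pairs lay between -0.15 and 0.55. The labels give the same dyes for every array, so the direction of replicate 2 was kept. Without it, 25 of 34 means were below 0, the median was -0.14 and 2 members passed the test, Snap91 (adjusted p = 0.0442) and Cplx2 (adjusted p = 0.0488). That was 5.88% of the members, against 5.21% of all probes (1518 of 29113), a share near the background. Without any other replicate 0 members passed, and of all probes 0.00343% passed without replicate 1 and 0% without replicate 3, 4 or 5. The first 4 replicates came from a single slide and the fifth from a separate slide; on the first slide alone the median was -0.07 with 21 of 34 means below 0, and on replicate 5 alone it was -0.17.

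**Figure D1:**
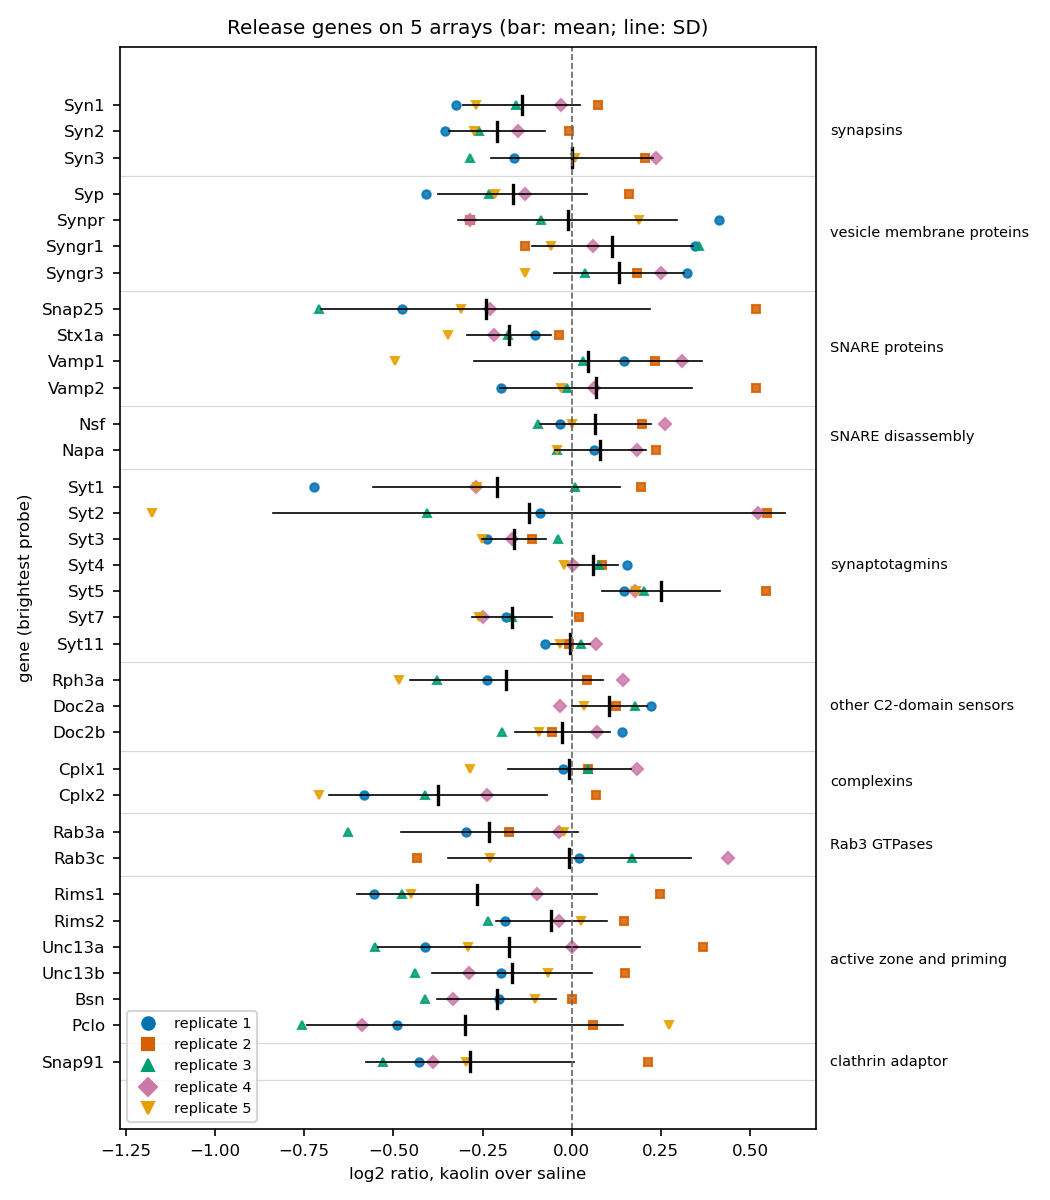
Log2 ratio of kaolin over saline (x axis) of the 34 release genes (y axis, grouped by role) on each of 5 arrays, with the mean as a vertical bar and the SD as a horizontal line. Squares of replicate 2 lie above 0 for 25 of 34 genes, and Cplx2 and Syt5 have the lowest and highest means, -0.37 and 0.25.

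The synapsins, phosphoproteins that hold the reserve pool of vesicles, had negative means in 2 of 3 members. Syn2 (probe at chr4:151392881-151392940 on rn4) had ratios of -0.36, -0.01, -0.26, -0.15 and -0.27 on replicates 1 to 5, a mean of -0.21 ± 0.13 (SD, n = 5; limma, unadjusted p = 0.0264, adjusted p = 0.245). Its normalised log2 signal was 11.24, 11.24, 11.13, 11.16 and 11.01 in kaolin cortex, against 11.60, 11.25, 11.39, 11.31 and 11.28 in saline cortex. All 5 kaolin signals were below all 5 saline signals, by a narrow margin on replicate 2. By brightest probe, Syn2 was the only member whose groups did not overlap (2.94% of members, against 1.61% of all probes lower in kaolin without overlap). The second probe of Vamp1, given below, did not overlap either. Syn1 had a mean of -0.14 ± 0.16 and was above 0 on replicate 2 only, while Syn3, at 0.00 ± 0.23, was split between the arrays. Syn3 was dim, with a mean log2 signal of 6.54 in both groups. It was above background in 4 of 5 kaolin samples and 3 of 5 saline samples, so its ratio near 0 says little.

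Vesicle membrane proteins went in both directions. Syp, the synaptophysin gene, had a mean of -0.17 ± 0.21 and was above 0 on replicate 2 only. The synaptogyrin genes Syngr1 and Syngr3 had means of 0.11 ± 0.23 and 0.13 ± 0.18, which median centring in place of loess took to the other sign, and Synpr (synaptoporin) stood at -0.01 ± 0.31. The list median of these 4 genes was 0.33, 0.01, -0.03, -0.04 and -0.09 on replicates 1 to 5.

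Of the SNARE genes, by brightest probe, the plasma membrane partners had negative means and the vesicle partners positive ones. The second probe of the vesicle partner Vamp1 had a negative mean. Snap25 (chr3:124893776-124893835) had ratios of -0.48, 0.52, -0.71, -0.23 and -0.31, with a mean of -0.24 ± 0.46. The 4 other arrays were below 0 and replicate 2 above it, and the spread between arrays exceeded the mean (adjusted p = 0.444 in limma). The mean was -0.43 without replicate 2, -0.12 without replicate 3 and -0.62 under median centring. Stx1a, syntaxin 1A, had smaller but steadier ratios of -0.10, -0.04, -0.18, -0.22 and -0.35, all below 0, with a mean of -0.18 ± 0.12 (limma, adjusted p = 0.265). Its normalised log2 signals averaged 10.62 ± 0.28 in kaolin cortex and 10.79 ± 0.19 in saline cortex (SD, n = 5 each) and overlapped. Vamp2, the main synaptobrevin of forebrain, was at 0.07 ± 0.27 on its brightest probe and 0.10 ± 0.24 on its other tested probe; the brightest was below 0 without replicate 2, with the sign of replicate 2 turned and under median centring.

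Vamp1, the other synaptobrevin gene, differed by probe. The brightest (chr4:161338592-161338651) had ratios of 0.15, 0.23, 0.03, 0.31 and -0.49, a mean of 0.05 ± 0.32. It was below 0 without replicate 2, without replicate 4, with the sign of replicate 2 turned, with slide as a fixed term and under median centring. The fixed term weights each slide equally, so replicate 5, alone on its slide, counted as much as replicates 1 to 4 together. The second (chr4:161337224-161337283) had -0.18, -0.15, -0.43, -0.42 and -0.16, a mean of -0.27 ± 0.14 (limma, unadjusted p = 0.0101, adjusted p = 0.243). On the second probe the log2 signals were 8.25, 8.41, 8.05, 8.12 and 8.30 in kaolin cortex, against 8.44, 8.56, 8.48, 8.53 and 8.46 in saline cortex. These groups did not overlap, while those of the first probe did. With the mean of a gene's probes in place of the brightest, Vamp1 was below 0. No gene models of build rn4 were used, so the exon that each probe reads is not given.

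The disassembly genes were near 0. Nsf, the ATPase that unwinds spent SNARE complexes, had a mean of 0.07 ± 0.15, and Napa, its alpha-SNAP adaptor, 0.08 ± 0.13; median centring and the turned sign of replicate 2 took both below 0.

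**Figure D2:**
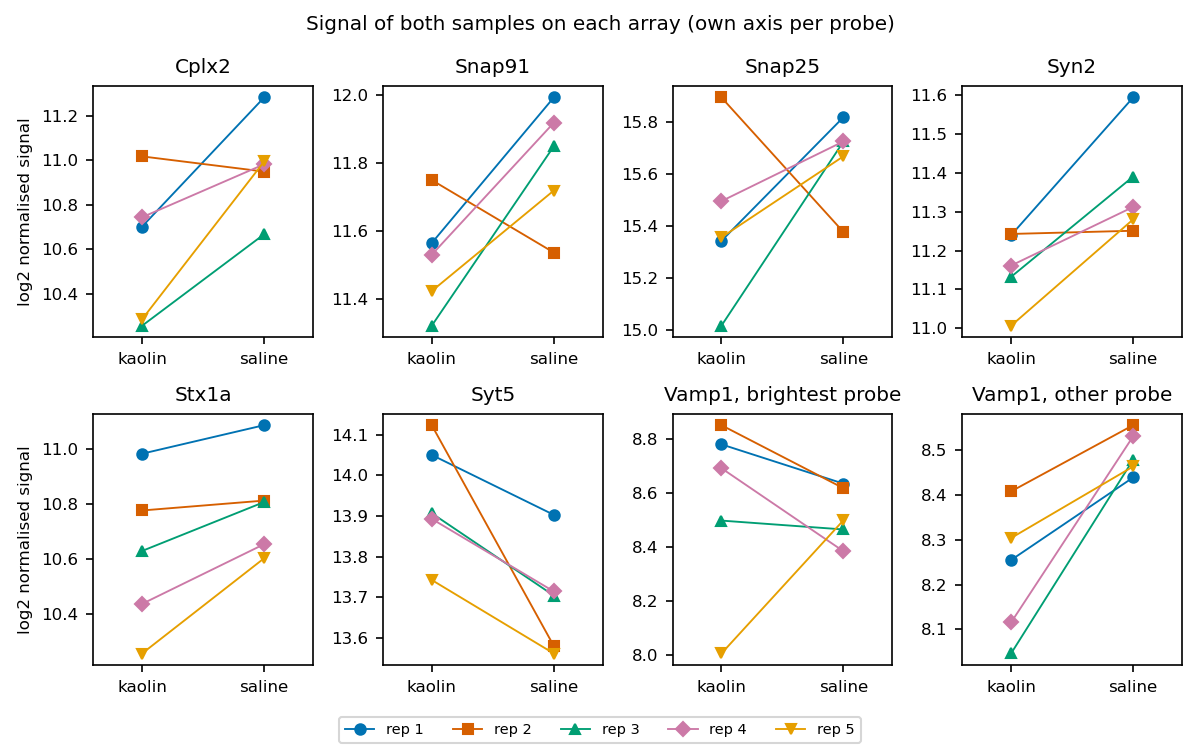
Normalised log2 signal (y axis, its own range in each panel) of kaolin cortex (left) and saline cortex (right) for 8 probes of 7 members, with a line joining the samples of an array. For Syn2 and the other Vamp1 probe all 5 kaolin signals are below all 5 saline signals; Snap25, Snap91 and Cplx2 slope the other way on replicate 2.

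Among the 7 synaptotagmins, 5 had negative means. Syt1, the fast calcium sensor of forebrain synapses, had ratios of -0.72, 0.19, 0.01, -0.27 and -0.27 on its brightest probe (mean -0.21 ± 0.35; -0.08 without replicate 1). A second probe that overlaps it in position had a mean of -0.21 ± 0.20, and the remaining probe, at chr7:47243495-47243554, stood at -0.02 ± 0.20. Syt2, the fast sensor of many inhibitory and hindbrain synapses, was the most variable member, with -0.09, 0.55, -0.40, 0.52 and -1.18 (mean -0.12 ± 0.72). Without replicate 5 its mean was 0.14. On replicate 5 Syt2 was the lowest of the 34 members.

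The other synaptotagmins had less spread. Syt3 had -0.24, -0.11, -0.04, -0.17 and -0.25 (mean -0.16 ± 0.09; limma, adjusted p = 0.270), below 0 on every array. Syt7, a slow, high-affinity sensor, had -0.19, 0.02, -0.17, -0.25 and -0.26 (mean -0.17 ± 0.11; limma, adjusted p = 0.275), and -0.36 with the authors' deposited ratios. Syt4 and Syt11, whose first calcium-binding domain lacks a conserved calcium ligand, were at 0.06 ± 0.07 and 0.00 ± 0.05, and Syt4 was below 0 under median centring.

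Syt5 was the member above 0 on every array. Its ratios were 0.15, 0.54, 0.20, 0.18 and 0.18, above 0 on every array, with a mean of 0.25 ± 0.16, a 1.19-fold value (limma, unadjusted p = 0.0180, adjusted p = 0.243). The log2 signal averaged 13.94 ± 0.15 in kaolin cortex and 13.69 ± 0.14 in saline cortex, and the groups overlapped. With the sign of replicate 2 turned the mean was 0.03. Under median centring it was -0.04, with all tested probes at a median of -0.10. On every array Syt5 had a higher ratio than Syt1, by 0.46 ± 0.25 on average (SD, n = 5); the pair was set side by side after the values were seen.

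Other C2-domain proteins were mixed. Rph3a, rabphilin, a Rab3 effector, had a mean of -0.18 ± 0.27. Doc2a and Doc2b, high-affinity sensors linked to spontaneous release, were at 0.11 ± 0.10 and -0.03 ± 0.13. Median centring took Doc2a below 0 and Doc2b above it. Doc2b, above background in 4 of 5 kaolin samples, was at -0.16 with the authors' deposited ratios.

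The complexins were unlike each other. Cplx2 (chr17:16315831-16315890) had ratios of -0.58, 0.07, -0.41, -0.24 and -0.71, with a mean of -0.37 ± 0.30 (limma, unadjusted p = 0.0164, adjusted p = 0.243), so that its signal in saline cortex was 1.30-fold that in kaolin cortex. The log2 signal averaged 10.60 ± 0.33 in kaolin cortex and 10.98 ± 0.22 in saline cortex, and the groups overlapped. Cplx1 stood at -0.01 ± 0.17, with either sign among the settings tried. Cplx2 was below Cplx1 on 4 of 5 arrays, all but replicate 2, by 0.37 ± 0.23 over the 5 arrays. This pair too was chosen with its values known, and no test is given.

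The Rab3 GTPases mark vesicles for docking. Rab3a had -0.30, -0.17, -0.63, -0.04 and -0.02, all below 0, with a mean of -0.23 ± 0.25 (limma, adjusted p = 0.287). Replicate 3 gave the lowest ratio, without which the mean was -0.13, and replicates 4 and 5 were close to 0. Rab3c averaged -0.01 ± 0.34, with a sign that varied among settings.

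All 6 active zone and priming genes had negative means, against 24 of 34 members and 50.8% of all tested probes. None of the 6 was below 0 on replicate 2, where 25 of 34 members were above 0. At an unadjusted p under 0.05 in limma, 1 of the 6 was lower in kaolin, against 9.31% of all tested probes. Below 0 on all 5 arrays were 0 of the 6, against 6.64% of all tested probes. Their list median was -0.31, 0.15, -0.46, -0.19 and -0.08 on replicates 1 to 5. Bsn, the bassoon scaffold, had -0.21, 0.00, -0.41, -0.33 and -0.10 (mean -0.21 ± 0.17; limma, adjusted p = 0.258). Pclo, the related piccolo scaffold, had -0.49, 0.06, -0.76, -0.59 and 0.27 (mean -0.30 ± 0.44). Its 3 lowest arrays were replicates 1, 3 and 4, and unlike Bsn it was above 0 on replicate 5. The mean of Pclo was -0.08 with slide as a fixed term. That setting weights each slide equally, so replicate 5 counted as much as replicates 1 to 4 together. Rims1, which tethers vesicles and calcium channels, had -0.56, 0.25, -0.48, -0.10 and -0.45 (mean -0.27 ± 0.34). Rims2 was at -0.06 ± 0.16, and the Munc13 priming factors Unc13a and Unc13b were at -0.18 ± 0.37 and -0.17 ± 0.22. The sign of these 6 means held under every setting tried, leave-one-out sets included. Not every setting could have changed it. All 6 genes were above 0 on replicate 2, so turning its sign or leaving it out could only lower their means. The filters do not alter a mean.

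Snap91 encodes AP180, a clathrin adaptor that retrieves vesicle proteins after fusion. Its ratios were -0.43, 0.21, -0.53, -0.39 and -0.30, with a mean of -0.29 ± 0.29 (limma, unadjusted p = 0.0423, adjusted p = 0.264). The 4 arrays other than replicate 2 lay close together. The log2 signal averaged 11.52 ± 0.16 in kaolin cortex and 11.80 ± 0.18 in saline cortex, with overlap. Leaving out replicate 2 took it past the threshold in limma, as above, and so did weighting the arrays (adjusted p = 0.0486), where replicate 2 had the lowest weight, 0.465. With array weights 1 of 34 members (2.94%) passed, against 9.71% of all probes.

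A further 40 genes of the release pathway, among them liprins, vesicular transmitter transporters and less studied synaptotagmins, were examined as a list. Of these, 36 were tested and 25 had negative means, against 50.8% of all tested probes. The list medians were -0.19, 0.06, -0.26, -0.07 and -0.11 on replicates 1 to 5. None passed the adjusted threshold in limma. At an unadjusted p under 0.05, 7 of 36 were lower in kaolin, against 9.31% of all tested probes. Higher in kaolin were 3 of 36, near the share of all tested probes (8.82%). Below 0 on all arrays with a mean of at least 0.3 in size was Sv2b, a vesicle glycoprotein gene, at -3.15 ± 1.80 on its brightest probe and 0.00 ± 0.41 on its other tested probe. Syngr2, a synaptogyrin found widely outside neurons, was above 0 on all arrays at 0.35 ± 0.31.

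The pan-neuronal and excitatory neuron lists had medians of the same sign as the release genes on each array, and the inhibitory neuron list differed from them in sign on replicates 1 and 2. The median of 12 pan-neuronal genes was -0.35, 0.24, -0.42, -0.25 and -0.29 on replicates 1 to 5, with 12 of 12 means below 0 and the neurofilament genes Nefm (-0.50 ± 0.63) and Nefh (-0.40 ± 0.80) the lowest. Their summed normalised signal ran from 163220 to 219589 in kaolin cortex and from 195294 to 234280 in saline cortex. Excitatory neuron markers had medians of -0.30, 0.06, -0.26, -0.06 and -0.21 (5 of 7 means below 0, Nrgn at -0.37 and Camk2a at -0.33). Inhibitory neuron markers had 0.05, -0.20, -0.37, -0.08 and -0.52 (6 of 8 below 0, Npy at -0.32 and Sst at -0.28). No tested marker of these 3 lists was below background throughout. In whole cortex the number of neurons, the RNA per neuron and the share of RNA from other cells cannot be told apart. Nor can an effect of dye, and none of these was tested.

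The medians of the reactive astrocyte and microglial lists were near 0 on replicates 1 and 2 and well above 0 on the others. Single genes varied on replicates 1 and 2, with Gfap at 0.39 and 0.60 and Itgam at -0.48 and 0.47. The reactive astrocyte list had medians of -0.01, -0.05, 2.36, 2.02 and 2.45 on replicates 1 to 5, with 9 of 10 means above 0 and a summed signal of 13833 to 82443 in kaolin cortex, against 12380 to 16327 in saline cortex. Timp1 (1.83 ± 1.95) and Gfap (1.81 ± 1.23) had its highest means. Microglial markers had medians of 0.09, 0.06, 2.16, 1.5 and 2.22, with 10 of 10 means above 0 and sums of 21784 to 107418, against 18724 to 22674; Tyrobp (mean 1.53) and C1qb (mean 1.51) were its highest. Replicates 1 and 2, both near 0 in these lists, were at -0.19 and 0.10 in the release genes. Oligodendrocyte markers had medians of 0.19, 0.15, -0.10, 0.23 and -0.65. Choroid plexus markers had 6 of 6 means below 0, with sums of 1072 to 3677 in kaolin cortex, against 1484 to 53902 in saline cortex, and Clic6 was not above background in any kaolin sample. Ttr had a mean of -2.85 ± 1.80; Otx2, at -1.78 ± 1.26, was above background in 1 of 5 kaolin samples and 4 of 5 saline samples. Pineal markers had 3 of 3 means below 0, with sums of 332.9 to 534.2, against 378.0 to 13786, and their lowest median (-2.63) was on replicate 2. The medians of the sums were closer, 352.0 in kaolin cortex and 437.2 in saline cortex. On replicate 2 Tph1 was at -5.90 and Asmt at -2.63. On the other arrays they ran from -1.26 to -0.05 and from -0.12 to 0.33. Tph1 had a mean of -1.80 ± 2.34, but was above background in 1 of 5 kaolin samples and 4 of 5 saline samples; Asmt had -0.49 ± 1.21. The part of these markers in the ratios of the release genes was not tested.

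**Figure D3:**
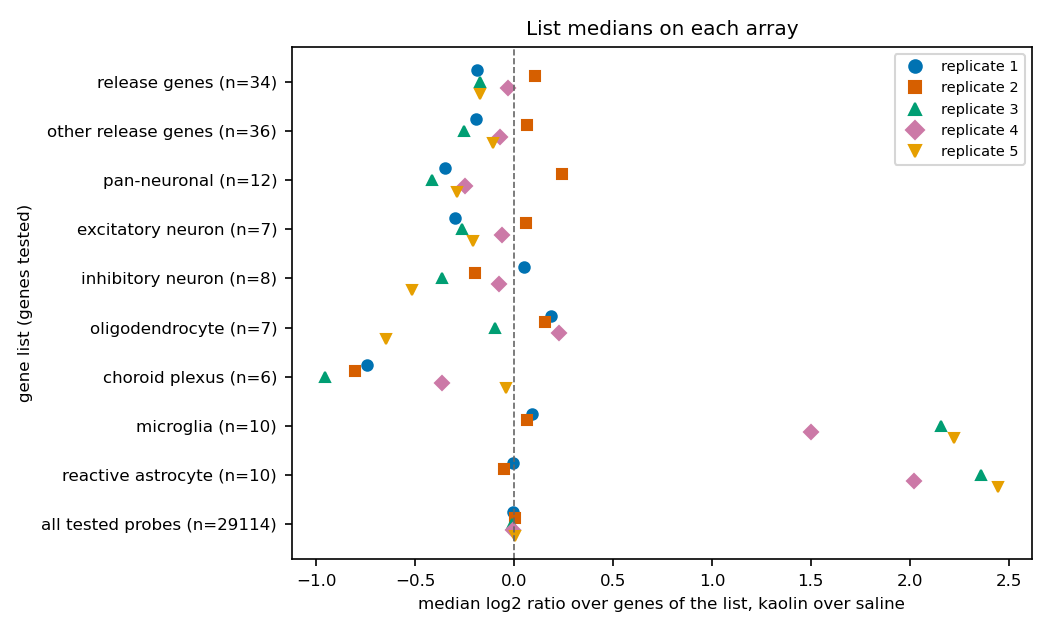
Median log2 ratio of kaolin over saline (x axis) of each gene list (y axis, with the number of genes tested) on each of 5 arrays. The release genes and the pan-neuronal genes are above 0 on replicate 2 only, at 0.10 and 0.24. The reactive astrocyte and microglial medians are near 0 on replicates 1 and 2 and at 1.5 or above on the others.

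The level of the set depended on how the dyes were balanced. With each array centred on its median in place of loess, 32 of 34 means were below 0, against 24 of 34 with loess, and the median of the set was -0.23; Cplx2 was then at -0.57, Snap91 at -0.50, Rab3a and Syp at -0.48 and -0.49, Syn2 at -0.41, Syt1 at -0.39, Stx1a at -0.36 and Bsn at -0.34. In that setting the median of all tested probes was itself -0.10, and 27 of 34 members lay below it. Between 21 and 27 members lay below the median of all tested probes in each setting that gave one, leave-one-out sets included; the strict filter left 32 members, and the mean of a gene's probes was not compared with that median. With the authors' deposited ratios 22 of 34 means were below 0 and the median was -0.09.

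**Figure D4:**
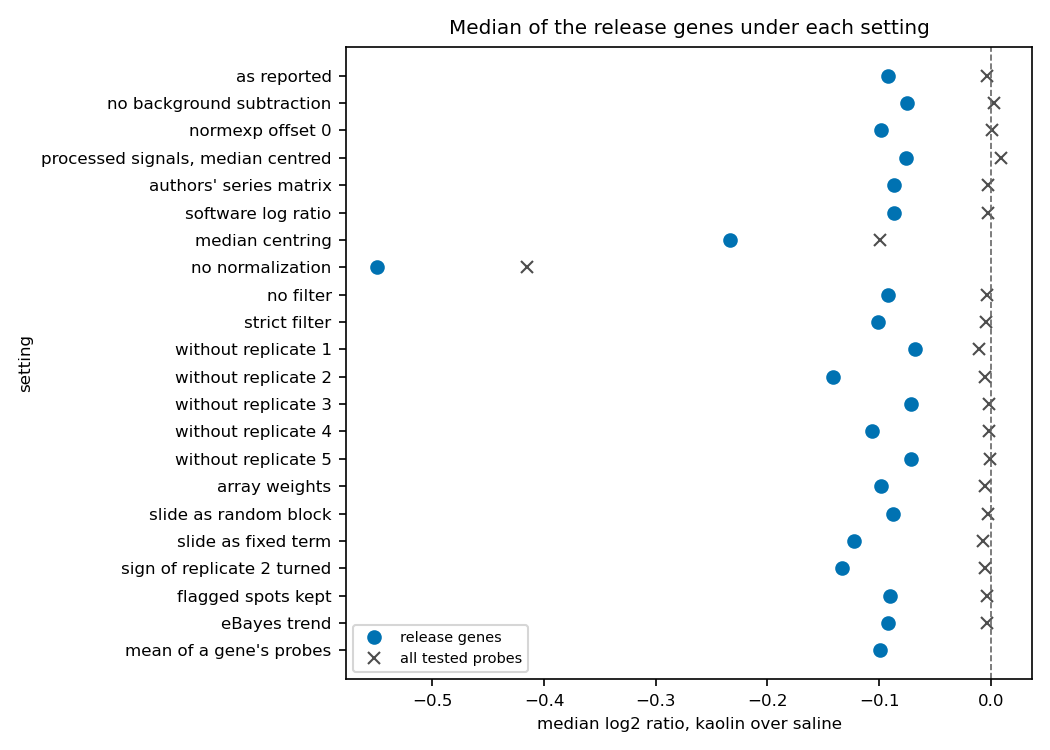
Median log2 ratio of kaolin over saline (x axis) of the 34 release genes (circles) and of all tested probes (crosses) under each setting (y axis). The circles lie left of the crosses in every setting that has both, and both shift to the left under median centring (-0.23 and -0.10) and with no normalization (-0.55 and -0.42).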

How the data were processed

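Total RNA of 5 kaolin and 5 saline cortex samples was read on 5 two-colour Agilent arrays. The deposited scanner files were written by version 10.1.1.1 of Agilent's Feature Extraction and hold, per the file headers, intensity values (mean spot signal, local background and a processed signal that is background-subtracted and dye-normalized). They also hold, per the file headers, a log10 ratio of Cy5 over Cy3 made by that software. The deposited series matrix holds the authors' log2 ratios, whose normalization no source used here states. Its columns ran opposite to the log10 ratios (r from -1.00 to -0.978; slope near 1.00 on a log2 scale), so they are kaolin over saline, with medians from -0.10 to 0.09.

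Median spot signals ran from 95.8 to 117.03 (kaolin) and 152.1 to 189.3 (saline), 27372 to 29385 probes per channel were above background, and the number of arrays limits precision. Spots marked as outliers (86 to 147 per array) were left out. Signals were corrected with normexp (offset 50) and loess. Probes above background in a channel on at least 3 arrays were tested with limma 3.58.1 in R 4.3.3, as an intercept against 0, two-sided. Normalised signals per sample were taken after between-array quantile scaling of mean signal. The fit was tested on simulated data. Named members were those with 1 sign on all arrays, the 8 smallest p or the 8 largest means; lists and members were chosen with earlier results of these data known. Probe positions are those of the files, on rn4; RefSeq tables (GRCr8) gave current symbols, and 21611 probes kept the file's name. Single values of some genes on the lists are not reported here.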

Additional observations from a re-analysis of the deposited data

Results flagged for a closer look

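The gap between the highest array and the rest was large for 1 of the 34 release genes. Syt5 had a ratio of 0.54 on replicate 2, against 0.15 to 0.20 on the other 4 arrays, a gap of 0.86 of its whole range, where Dixon's critical value for 5 samples is 0.71. Chance flags about 1 in 20 such groups. Without replicate 2 the mean of Syt5 was 0.18.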

How the results depend on the processing

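Each array pairs a kaolin and a saline sample, so the test on the ratios was already paired by array. With only 1 group of ratios, no further pairing was possible. With 5 arrays and no exchanged dyes, a small ratio of a bright gene and the balance of the dyes cannot be told apart. Members past the threshold numbered 0 as reported, 32 with no normalization, 1 with array weights and 0 to 2 when 1 replicate was left out. Probes past it over the whole array numbered 0 as reported, 22 with median centring, 23156 with no normalization, 2826 with array weights, 487 with the sign of replicate 2 turned and 0 to 1518 when 1 replicate was left out. The median of the members was -0.09 as reported, -0.23 with median centring, -0.55 with no normalization, where all tested probes had a median of -0.42, and -0.14 to -0.07 when 1 replicate was left out; with the sign of replicate 2 turned it was -0.13, with 27 of 34 means below 0. Members with a negative mean numbered 24 as reported and 21 to 25 when 1 replicate was left out. With no normalization 23156 of 29114 probes and 32 of 34 members passed, so a call there sets no member apart. In that setting 9 members with positive means turned to negative calls: Syngr3 (-0.51), Syt5 (-0.36), Vamp2 (-0.52), Napa (-0.46), Nsf (-0.44), Doc2a (-0.37), Vamp1 (-0.40), Syt4 (-0.38) and Syngr1 (-0.33). The slide as a random block (correlation -0.09) or fixed term, other background corrections, other filters, kept outlier spots and a variance trend gave 0 members past the threshold. The causes were not tested.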

Other observations

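The vesicular transmitter transporters, picked after their values were seen, were not alike. Slc17a7, the glutamate transporter of most cortical excitatory terminals, had a mean ratio of 0.08 ± 0.17 (SD, n = 5) and was above 0 on 4 of 5 arrays. Slc17a6, which marks thalamic and other subcortical glutamate neurons, had ratios of -0.19, 0.15, -0.90, 0.04 and -1.47 on replicates 1 to 5, a mean of -0.47 ± 0.69. Slc32a1, the vesicular GABA transporter, was at -0.22 ± 0.32 and below 0 on 4 of 5 arrays. In limma their adjusted p-values were 0.601, 0.325 and 0.369.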
